A study of Mus musculus with 21 samples.

Results

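Expression of 42 genes of DNA damage signalling and repair was followed on 21 microarrays of sorted mouse medulloblastoma cells. The genes were chosen by name, with earlier results of these data known. They were 13 of homologous recombination, 10 of the Fanconi anaemia pathway, 3 of mismatch repair, 6 of end joining, 5 of base excision and single-strand break repair, and 5 of damage signalling. All probe sets carrying these symbols were taken, which gave 89 probe sets for 41 of the 42 genes. Xrcc2 was not analysed here. Of the 89 probe sets, 80 passed a filter on dim signal, and all 41 genes were among the 12367 genes tested.

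The tumours were medulloblastomas of Patched mice, in which loss of the receptor that restrains Hedgehog signalling leads to tumours of the granule neuron lineage of the cerebellum. Cells had been sorted by CD15, a carbohydrate antigen on the surface of several progenitor cells. There were 4 groups: from tumours titled math-1GFP (Math1-GFP below), 4 arrays of CD15 positive and 5 of CD15 negative cells, and from tumours titled conventional patched, 6 arrays of each fraction. Math1 is another name of Atoh1, a gene that marks precursors of granule neurons, and GFP is green fluorescent protein. What drives the reporter, which Patched alleles were carried and how old the mice were is not stated in the labels. The titles of the 9 Math1-GFP samples do not name Patched; their description field reads conventional Patched, as for the others, and grouping went by the titles. Separate animals are not stated for the samples of a group, so the p-values reflect the spread among these arrays, some of which may be technical.

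Cells that copy DNA meet stalled forks and broken strands, which the kinases ATR and ATM sense and pass on to the checkpoint kinases Chek1 and Chek2. Breaks are mended by homologous recombination, which uses the sister chromatid as template and works after replication, or by end joining, which ligates ends at any time. Crosslinks between strands are handled by the Fanconi anaemia proteins, mispaired bases by mismatch repair, and damaged bases and single-strand breaks by glycosylases, Parp1 and Xrcc1. In the cerebellum, granule neuron precursors divide rapidly after birth, and mice that lack certain recombination or end joining genes together with p53 in the nervous system are prone to medulloblastoma.

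All arrays carried the signature of the lineage. Signals of the precursor genes Atoh1 (343 to 2370.5), Barhl1 (886 to 2245) and Zic1 (6539 to 14625) were well above the filter of 15.5 on each array. Every array had been scaled to a trimmed mean signal of 150.0, and the number of arrays limits the precision. In each Math1-GFP group 1 array was set apart by lower values of the 41 repair genes as a whole. Math1-GFP CD15 positive array 1 had a mean level of 7.53 on the log2(signal + 32) scale, against 7.83 to 7.91 in the rest of its group. Math1-GFP CD15 negative array 2 had 7.42, against 7.66 to 7.81, while conventional CD15 negative arrays went down to 7.43. Both arrays were also the lowest of their groups in 25 S phase genes (9.32 and 9.21). Their titles lack a tag that the other Math1-GFP titles carry. Array 1 also had the highest mean level of 7 measured astrocyte genes, at 9.41, and of 5 neutrophil genes, at 7.73. Within its group it was highest in 11 microglial genes (7.47) and 16 neuronal genes (9.06), and lowest in 6 oligodendrocyte genes (8.26). In the conventional tumours, CD15 negative array 5 had the lowest mean level of 22 genes of G2 and M phase (8.95) and the highest of 16 neuronal genes (10.31). Within its group it was also highest in 11 microglial genes (8.44) and 5 neutrophil genes (7.52), and lowest in 6 oligodendrocyte genes (7.64). The probe sets of Bard1 and Polq were dim, with signals down to 1.6 and 6.1 on single arrays, so their fold changes are less certain. Some of the results that rest on the arrays named here, mainly counts and medians, are given with and without them. In bulk RNA of sorted cells, fewer cells of a type and less RNA per cell cannot be told apart.

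CD15 positive cells of conventional tumours were compared with CD15 negative cells of conventional tumours, without pairing the arrays. The labels do not say whether both fractions came from the same tumours. Damage signalling and repair genes were mostly higher in the CD15 positive cells, by modest amounts. Of the 41 genes, 5 passed the test, all higher: Topbp1, Nbn, Chek2, Fanca and Chek1 (limma, Benjamini-Hochberg adjusted p under 0.05 over all genes tested). Among all 12367 genes, 8.13% passed, 3.05% higher and 5.09% lower. The fold change was positive for 35 of the 41 repair genes, against 47.3% of all genes, and 18 of the 41 had an unadjusted p under 0.05, against 22.2% of all genes. The median log2 fold change was 0.26 over the repair genes and −0.02 over all genes, and single repair genes lay between −0.14 and 0.65. The genes were chosen with earlier results of these data known, so these shares describe the list and do not test it. In 4 repair genes (Chek2, Nbn, Fanca and Rad54l) every CD15 positive array was above every CD15 negative array, a pattern that 1.89% of all genes showed. None of the 41 had every CD15 positive array below, against 2.52% of all genes.

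**Figure D1:**
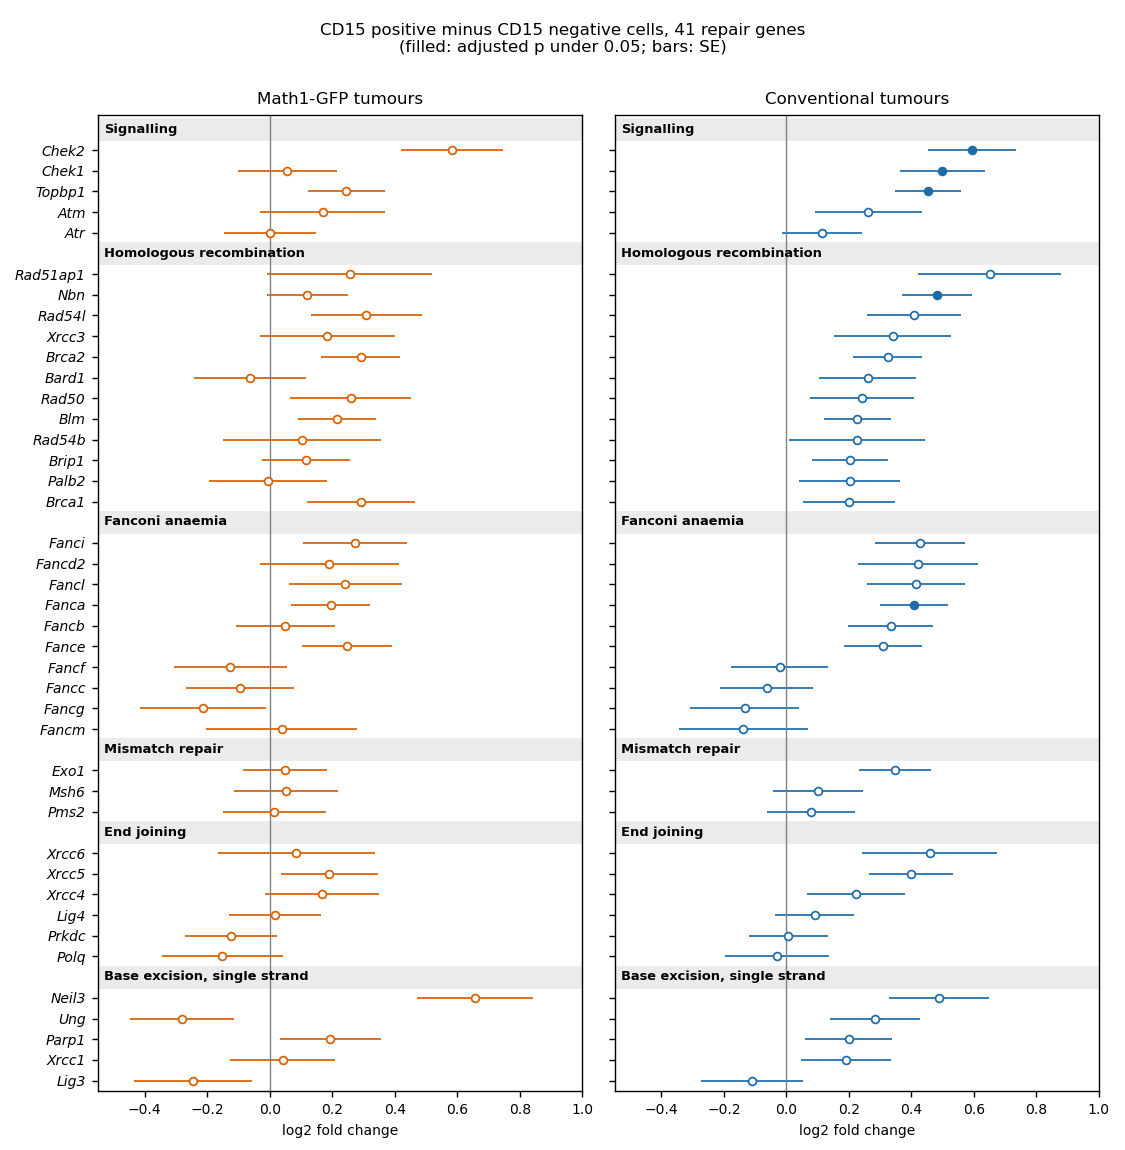
Log2 fold change, CD15 positive minus CD15 negative cells, of 41 repair genes grouped by role, with Math1-GFP tumours on the left and conventional tumours on the right (x axis: log2 fold change; bars: standard error; filled points: adjusted p under 0.05). In conventional tumours 5 points are filled and 35 of 41 lie above 0, while in Math1-GFP tumours none is filled and 32 of 41 lie above 0.

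Of the 5 signalling genes 3 passed, and all 5 fold changes were positive, with a median of 0.45. Chek2, the checkpoint kinase acting below ATM, had signals of 277 to 385 (median 303) in CD15 positive cells, against 143 to 255 (median 203) in CD15 negative cells. All 6 CD15 positive arrays were above all 6 CD15 negative arrays. The log2 fold change was 0.59 ± 0.14 (SE, limma, adjusted p = 0.0118), or 1.51-fold on the log2(signal + 32) scale, which understates changes of dim genes.

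Topbp1, the scaffold through which ATR is activated, had signals of 704 to 1030.0 (median 907) in CD15 positive cells, against 552 to 800.0 (median 629) in CD15 negative cells. A single CD15 positive array, number 2, fell into the range of the CD15 negative arrays. Topbp1 differed by a log2 fold change of 0.45 ± 0.11 (SE, limma, adjusted p = 0.0101). A second, dimmer Topbp1 probe set gave 0.12, and with the mean of both probe sets the gene no longer passed (0.28, adjusted p = 0.117).

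Chek1, the kinase that ATR acts through, had signals of 349.6 to 578 (median 443) in CD15 positive cells, against 267 to 357 (median 314) in CD15 negative cells. The groups overlapped at the lowest CD15 positive array. Chek1 had a log2 fold change of 0.50 ± 0.14 (SE, limma, adjusted p = 0.0259), and 2 other Chek1 probe sets gave 0.56 and 0.21. The call depended on single arrays: the adjusted p was 0.0602 and 0.0608 without array 4 or 5 of the CD15 positive cells, and 0.0588 and 0.0667 without array 4 or 5 of the CD15 negative cells.

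The kinases at the top of the cascade did not pass the test. Atm had a log2 fold change of 0.26 ± 0.17 (SE, limma, adjusted p = 0.401) and Atr of 0.11 ± 0.13 (SE, limma, adjusted p = 0.671). Their 95% intervals ran from −0.10 to 0.63 for Atm and from −0.16 to 0.38 for Atr, so changes of the size seen for Chek2 were within the interval of Atm and outside that of Atr.

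**Figure D2:**
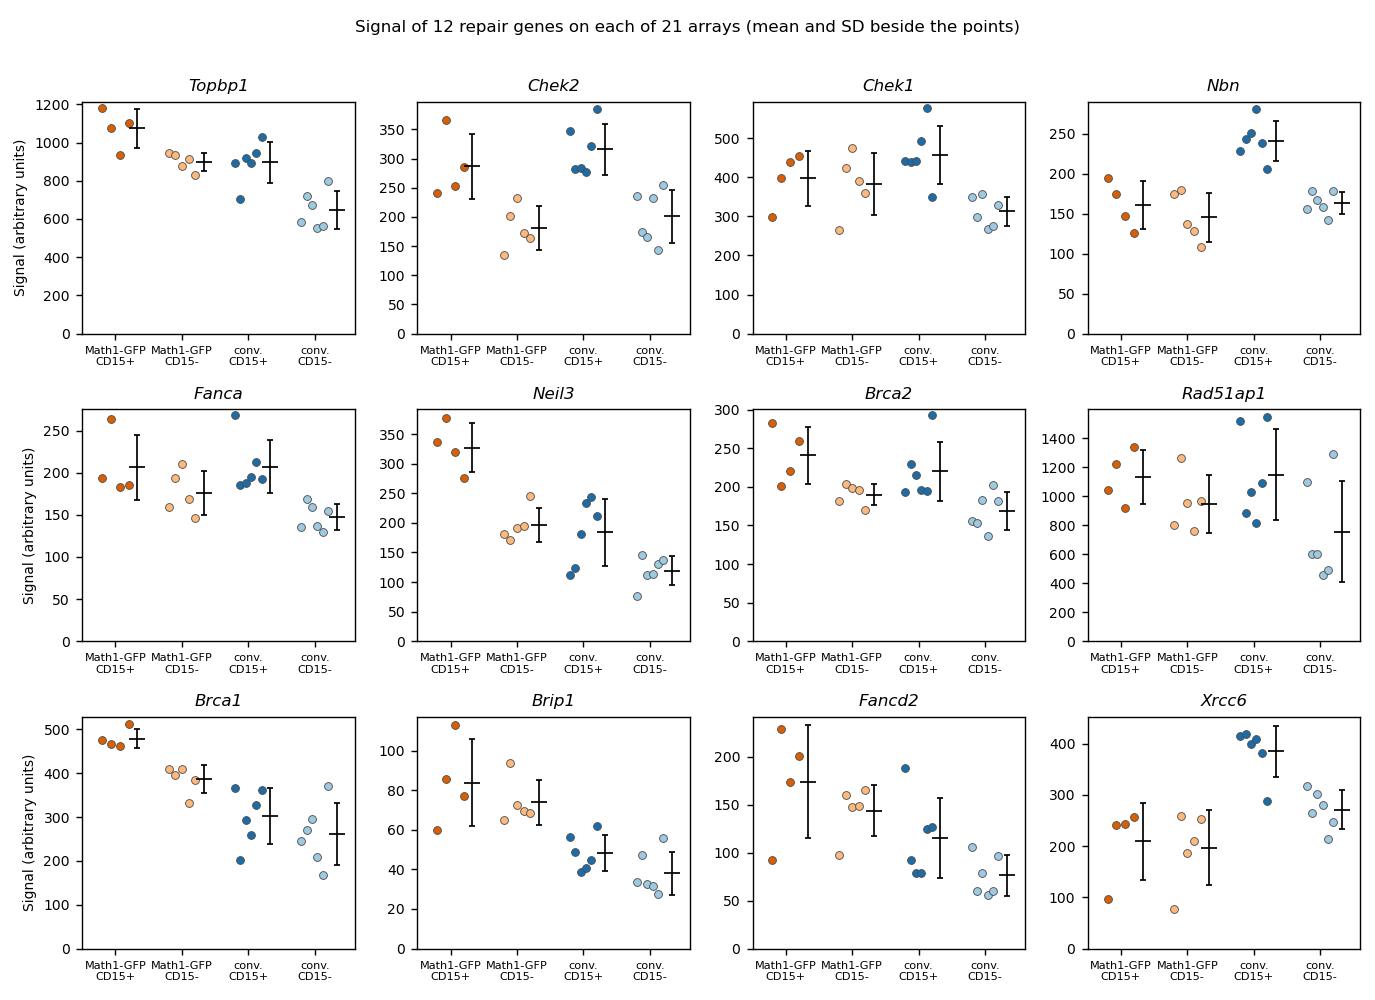
Signal (y axis, arbitrary units, starting at 0) of 12 repair genes on each of 21 arrays, by group on the x axis; each point is an array, and the bar beside the points gives mean and SD. Chek2 and Nbn separate the CD15 positive from the CD15 negative arrays of conventional tumours, and Xrcc6 shows 2 Math1-GFP arrays below 100.

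Of the 12 homologous recombination genes measured, all 12 had a positive fold change, with a median of 0.25, and 1 passed the test. That gene was Nbn, the subunit that links the Mre11 complex to ATM. Its signals were 205 to 282 (median 241) in CD15 positive cells, against 143 to 178 (median 163) in CD15 negative cells. The 6 CD15 positive arrays were all above the 6 CD15 negative arrays. Nbn had a log2 fold change of 0.48 ± 0.11 (SE, limma, adjusted p = 0.0106).

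Rad51ap1, which stimulates the pairing of strands in recombination, had the largest fold change of the 41 genes and the widest spread. Its signals were 814 to 1542 (median 1059) in CD15 positive cells, against 458 to 1291 (median 598) in CD15 negative cells. The unnumbered array and array 6 of the CD15 negative cells lay among the CD15 positive ones. Its log2 fold change of 0.65 ± 0.23 missed the threshold (SE, limma, adjusted p = 0.0871), but on the numbered arrays alone it passed at 0.69 with same-numbered arrays as pairs (limma, adjusted p = 0.0103), and did not without the pairing (adjusted p = 0.0879).

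Brca2, which acts on resected single-stranded DNA, had a log2 fold change of 0.32 ± 0.11 (SE, limma, adjusted p = 0.0759). For Rad54l, a motor protein that acts during strand exchange, the value was 0.41 ± 0.15 (SE, limma, adjusted p = 0.108), although its signals of 266 to 357 in CD15 positive cells were all above the 174 to 251 in CD15 negative cells. Brca1, which promotes the resection of broken ends, gave 0.20 ± 0.15 (SE, limma, adjusted p = 0.468), with overlapping groups. The other 7 measured genes of this group (Bard1, Rad54b, Palb2, Blm, Brip1, Xrcc3 and Rad50) lay between 0.20 and 0.34, and none passed.

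The Fanconi anaemia genes were split. Of 10 genes, 6 had fold changes between 0.31 and 0.43 (Fanci, Fancd2, Fancl, Fanca, Fancb and Fance), and 4 between −0.14 and −0.02 (Fancf, Fancc, Fancg and Fancm). Only Fanca, a subunit of the core ubiquitin ligase complex, passed. Its signals were 185 to 269 (median 194) in CD15 positive cells, against 130.0 to 169 (median 146) in CD15 negative cells, without overlap. This gave a log2 fold change of 0.41 ± 0.11 (SE, limma, adjusted p = 0.0236).

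Over all alternatives the Fanca call was the least stable of the 5, kept in 26 of 34, against 29 of 34 for Chek1. On leaving out 1 array, Fanca kept its call in 18 of 21 fits and Chek1 in 17. The second Fanca probe set gave −0.0037, and the mean of both gave 0.20 (limma, adjusted p = 0.216). Without the unnumbered CD15 positive array, the highest for Fanca, the adjusted p was 0.0595. On the numbered arrays alone the value was 0.32, and it passed neither with the pairs as a block (adjusted p = 0.106) nor without it (adjusted p = 0.0986). Fanci, the partner of Fancd2 at crosslinks, had 0.43 ± 0.14 (SE, limma, adjusted p = 0.0714), Fancl, the ligase subunit of the complex, 0.41 ± 0.16 (SE, limma, adjusted p = 0.113), and Fance, which joins the complex to Fancd2, 0.31 ± 0.12 (SE, limma, adjusted p = 0.142).

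None of the 3 mismatch repair genes passed. Exo1, the exonuclease that removes the mispaired strand, had a log2 fold change of 0.35 ± 0.12 (SE, limma, adjusted p = 0.0689). Msh6, a subunit of the mismatch sensor, had 0.10 ± 0.14, and Pms2, a subunit of the endonuclease that follows it, 0.08 ± 0.14 (SE).

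None of the 6 end joining genes passed, and 5 of 6 fold changes were positive, with a median of 0.16. Both Ku subunits, which cap broken ends, had the larger values: 0.40 ± 0.13 for Xrcc5 (SE, limma, adjusted p = 0.0719) and 0.46 ± 0.22 for Xrcc6 (SE, limma, adjusted p = 0.212). Signals of Xrcc6 were 288 to 419 (median 404) in CD15 positive cells, against 215 to 318 (median 273) in CD15 negative cells; CD15 positive array 6 was the one within the CD15 negative range. The ligase Lig4 and its partner Xrcc4 had 0.09 ± 0.13 and 0.22 ± 0.16 (SE), while Prkdc, the kinase recruited by Ku, and the polymerase Polq were at 0.01 and −0.03.

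Among the 5 genes of base excision and single-strand break repair, 4 fold changes were positive, with a median of 0.20 over all 5, and none passed. Neil3, a glycosylase also known to undo crosslinks at replication forks, had signals of 112 to 244 (median 196) in CD15 positive cells, against 76.4 to 146 (median 122) in CD15 negative cells. The unnumbered array and array 2 of the CD15 positive cells lay within the CD15 negative range. For Neil3 the log2 fold change was 0.49 ± 0.16 (SE, limma, adjusted p = 0.0647). On the numbered arrays alone it was 0.50 and passed, both with the pairs as a block (adjusted p = 0.0342) and without it (adjusted p = 0.0410). Ung, which removes uracil from DNA, had 0.28 ± 0.14, Parp1, the sensor of strand breaks, 0.20 ± 0.14, and the scaffold Xrcc1 0.19 ± 0.14 (SE). Lig3, a ligase partner of Xrcc1, was at −0.11.

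Titles give the numbers 2 to 6 to both conventional groups, so the difference could be read within 5 numbered pairs. In 16 of the 41 repair genes the CD15 positive array was the higher in all 5 pairs, against 13.8% of all genes. Chek2 differed by 0.22 to 1.01 (median 0.61) on the log2 scale, Nbn by 0.17 to 0.72 (median 0.51) and Chek1 by 0.08 to 0.99 (median 0.51). Topbp1 was higher in 4 of 5 pairs, the exception being array 2 at −0.03. On the numbered arrays alone, 6 repair genes passed with the number as a block, against 9.99% of all genes, and 5 without the block, against 6.21% of all genes. In both fits Fanca did not pass and Neil3 did, and Rad51ap1 passed with the block but not without it.

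**Figure D3:**
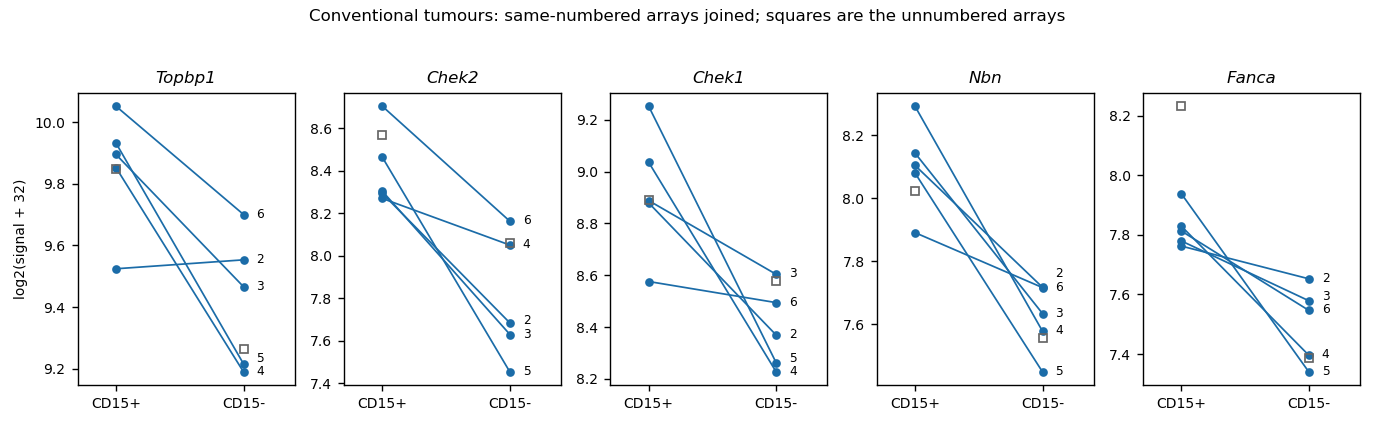
Level, log2(signal + 32) on the y axis (not starting at 0), of the 5 repair genes that passed in conventional tumours, with CD15 positive cells left and CD15 negative cells right; lines join arrays with the same title number (given at the right end) and open squares are the unnumbered arrays. Every line slopes down to the CD15 negative side except that of array 2 for Topbp1.

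The sequences before the transcription starts of the repair genes were read next. RefSeq promoter windows (GRCm38.p6, 250 bases before the start) were on hand for 35 of the 42 genes, among them 4 of the 5 that passed. An E2F-type element, the binding sequence of the factors that switch on replication genes, was searched as TTTCCCGC, TTTCGCGC, TTTGCCGC or TTTGGCGC on both strands. It was in the windows of 6 genes (17.1% of 35): Chek2, Topbp1, Brca2, Xrcc6, Bard1 and Fancg, against 2.2% of 27025 genes in the table. Of 19 S phase genes with a window 36.8% held it, and of 20 genes of G2 and M phase 5.0%. The windows of Chek2 and Topbp1 (past the threshold) and of Brca2 and Xrcc6 (positive, not past it) are shown 5′ to 3′, all on the plus strand, with the match in capitals. They lie at chr5:110839733-110839982 (Chek2), chr9:103305077-103305326 (Topbp1), chr5:150522371-150522620 (Brca2) and chr15:82016119-82016368 (Xrcc6).
Chek2: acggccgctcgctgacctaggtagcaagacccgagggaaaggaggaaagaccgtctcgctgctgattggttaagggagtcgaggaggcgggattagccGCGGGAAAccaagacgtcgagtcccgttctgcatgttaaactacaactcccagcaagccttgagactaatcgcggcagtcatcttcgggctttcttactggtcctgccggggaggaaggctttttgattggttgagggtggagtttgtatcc
Topbp1: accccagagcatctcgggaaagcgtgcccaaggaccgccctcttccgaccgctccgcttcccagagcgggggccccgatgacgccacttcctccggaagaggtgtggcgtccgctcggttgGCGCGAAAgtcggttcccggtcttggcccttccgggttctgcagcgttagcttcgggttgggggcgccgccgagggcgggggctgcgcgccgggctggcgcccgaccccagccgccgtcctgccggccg
Brca2: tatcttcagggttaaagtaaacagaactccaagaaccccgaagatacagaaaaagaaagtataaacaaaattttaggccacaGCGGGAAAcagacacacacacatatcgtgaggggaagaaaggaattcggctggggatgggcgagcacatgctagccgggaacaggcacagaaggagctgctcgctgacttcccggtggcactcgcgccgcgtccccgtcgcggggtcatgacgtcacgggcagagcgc
Xrcc6: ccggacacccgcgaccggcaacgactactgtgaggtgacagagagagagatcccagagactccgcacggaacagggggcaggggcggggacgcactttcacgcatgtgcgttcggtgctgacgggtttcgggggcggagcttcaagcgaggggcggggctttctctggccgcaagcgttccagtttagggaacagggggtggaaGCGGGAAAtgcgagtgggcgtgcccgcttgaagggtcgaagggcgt
The match ended 144 bases before the start in Chek2, 121 in Topbp1, 160 in Brca2 and 38 in Xrcc6. A match is a description of letters and not a measured binding site, and Fancg, which holds one, had a fold change of −0.13. The CCAAT box (CCAAT on either strand) was in 51.4% of the members' windows, against 37.5% of all, and the CHR element of late cell cycle genes (TTTGAA on either strand) in 5.7%, against 18.3%.

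In conventional tumours, markers of the cell cycle moved the same way as the repair genes and markers of neurons the other way. Of 25 measured S phase genes, 9 were higher in CD15 positive cells and 0 lower, with a median log2 fold change of 0.42. Of 22 genes of G2 and M phase, 21 were higher, with a median of 0.85. Of 16 neuronal genes, 13 were lower, with a median of −1.12. The repair genes' median of 0.26 was smaller in size than these 3, whatever their sign. The mean level of the S phase genes was 9.63 to 9.81 in CD15 positive cells, against 9.07 to 9.61 in CD15 negative cells, and that of the neuronal genes was 8.32 to 9.04, against 9.50 to 10.31. The part of these cells' division and maturation in the repair gene differences was not tested. Of 11 microglial genes none passed (median 0.82), and their mean level ranged widely, from 6.59 to 9.90 in CD15 positive cells and from 5.93 to 8.44 in CD15 negative cells.

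**Figure D4:**
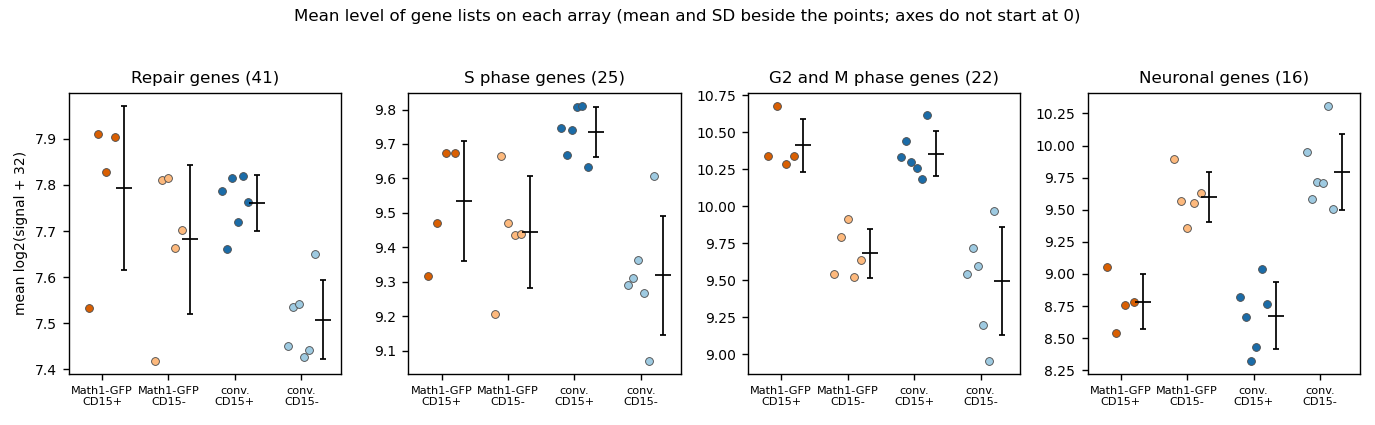
Mean level, log2(signal + 32) on the y axis (not starting at 0), of 41 repair, 25 S phase, 22 G2 and M phase and 16 neuronal genes on each of 21 arrays, by group on the x axis; each point is an array, and the bar beside the points gives mean and SD. Repair and cycle genes are higher and neuronal genes lower on CD15 positive arrays of conventional tumours, and 1 array in each Math1-GFP group is low in repair genes.

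The conventional arrays were also read in 2 sets, chosen with earlier results of these data known: numbers 2 to 5, and number 6 with the unnumbered arrays. The median of the repair genes was 0.28 among numbers 2 to 5 (36 of 41 positive) and 0.26 among the others (35 of 41 positive). Among numbers 2 to 5, 5 repair genes passed, of which Chek2, Chek1 and Nbn were among the 5 above and Rad51ap1 and Xrcc6 were not, while 5.39% of all genes passed. Among the unnumbered arrays and number 6, 0 of the 41 passed, as did 0 of all genes there. Without CD15 negative array 5 the median was 0.26 (37 of 41 positive), and 3 of the 41 passed, Chek1 and Fanca dropping out, while 4.9% of all genes passed.

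In Math1-GFP tumours the same comparison of CD15 positive with CD15 negative cells gave 0 of 41 repair genes past the threshold, and 0.0404% of all genes (5 of 12367). At an unadjusted p under 0.05 there were 3 of 41 repair genes (Chek2, Neil3 and Brca2), against 8.68% of all genes. The fold change was positive for 32 of 41, against 50.9% of all genes, and the median was 0.12. In 3 repair genes, Chek2, Neil3 and Brca1, all 4 CD15 positive arrays were above all 5 CD15 negative arrays, as in 2.54% of all genes.

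Chek2 had signals of 242, 366, 254 and 286 in Math1-GFP CD15 positive cells, against 135, 202, 233, 172 and 163 in CD15 negative cells. The lowest CD15 positive array lay just above the highest CD15 negative one. The log2 fold change of 0.58 ± 0.16 did not pass (SE, limma, adjusted p = 0.171), and its 95% interval was 0.24 to 0.93.

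Neil3 had signals of 337, 378, 321 and 276 in Math1-GFP CD15 positive cells, against 182, 170.3, 191, 195 and 245 in CD15 negative cells. The log2 fold change was 0.66 ± 0.19 (SE, limma, adjusted p = 0.171). Brca1 had signals of 476, 467, 462 and 512 in CD15 positive cells, against 409, 396, 409.9, 332 and 383 in CD15 negative cells, a log2 fold change of 0.29 ± 0.17 (SE, limma, adjusted p = 0.689). Both genes were higher on every CD15 positive array, and neither passed over all genes.

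Brca2 had a log2 fold change of 0.29 ± 0.13 (SE, limma, adjusted p = 0.506), Topbp1 of 0.25 ± 0.12 (SE, limma, adjusted p = 0.597) and Rad54l of 0.31 ± 0.18 (SE, limma, adjusted p = 0.678). Fold changes of the 3 other genes that had passed in conventional tumours were small: 0.06 for Chek1, 0.12 for Nbn and 0.19 for Fanca. Without arrays 1 and 2, 31 of 41 fold changes were positive, the median was 0.15 and again none passed. Of the S phase genes none passed (median 0.10), of the G2 and M phase genes 1 of 22 (median 0.73), and of the neuronal genes none (median −0.69). None of 7 astrocyte genes passed either, but their median was 1.11, with 6 of 7 positive, and their mean level was 7.63 to 9.41 in CD15 positive cells, against 6.69 to 7.39 in CD15 negative cells. Of 11 microglial genes none passed, with a median of 0.46 and 10 of 11 positive. The part of these cells in the repair gene values was not tested.

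An interaction term asked whether the CD15 difference depended on the model. It passed for 0 of 41 repair genes and for 0 of 12367 genes in all (limma; 0% of all genes). At an unadjusted p under 0.05 there were 3 of 41, against 2.26% of all genes: Ung at −0.56 ± 0.22, Chek1 at −0.44 ± 0.21 and Nbn at −0.36 ± 0.17 (SE). For Ung the Math1-GFP difference was −0.28 and the conventional one 0.28. The interval for Chek2 was −0.47 to 0.45, so the models' differences in Chek2 could not be told apart from each other within that width. The interaction was above 0 for 4 of 41 repair genes, against 53.7% of all genes, with a median of −0.12. It was above 0 for 0 of 25 S phase genes (median −0.33) and 2 of 22 genes of G2 and M phase (median −0.14). For neuronal genes it was above 0 in 13 of 16 (median 0.28).

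Averaged over both models, 7 of 41 repair genes passed, all higher in CD15 positive cells, against 9.74% of all genes in either direction and 3.77% higher. Fold changes were above 0 for 34 of 41, against 49.6% of all genes. The 7 genes that passed were Chek2 (0.59, adjusted p = 0.00133), Neil3 (0.57, adjusted p = 0.0044), Topbp1 (0.35, adjusted p = 0.00793), Brca2 (0.31, adjusted p = 0.0234), Fanca (0.30, adjusted p = 0.0257), Nbn (0.30, adjusted p = 0.03) and Fanci (0.35, adjusted p = 0.0475). Chek1 did not (0.28, adjusted p = 0.0966). Without Math1-GFP CD15 positive array 5 or CD15 negative array 10, 4 genes passed, Fanca, Fanci and Nbn being those lost.

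Math1-GFP tumours were compared with conventional tumours over both CD15 fractions. The fit treated the arrays of both fractions as independent. Same-numbered conventional arrays deviated together (correlation 0.53 to 0.79), so the SEs and p-values between models may be too small. The titles of all conventional arrays end in one suffix and those of all Math1-GFP arrays in another, so the model and any difference in handling cannot be told apart. Of the 41 repair genes, 16 passed, 11 higher and 5 lower in Math1-GFP tumours. That is 39.0%, against 39.2% of all genes, so the total of repair genes was near the background. By direction, 26.8% were higher, against 18.7% of all genes, and 12.2% were lower, against 20.5% of all genes. Of all genes that passed, 47.7% were higher as deposited and 37.0% after quantile normalization, and the repair genes' median was 0.10 as deposited and 0.01 after quantile normalization. No repair gene separated all Math1-GFP from all conventional arrays, in either direction, as 1.35% of all genes did upwards and 3.57% downwards. Fold changes were above 0 for 28 of 41 repair genes, against 49.2% of all genes.

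**Figure D5:**
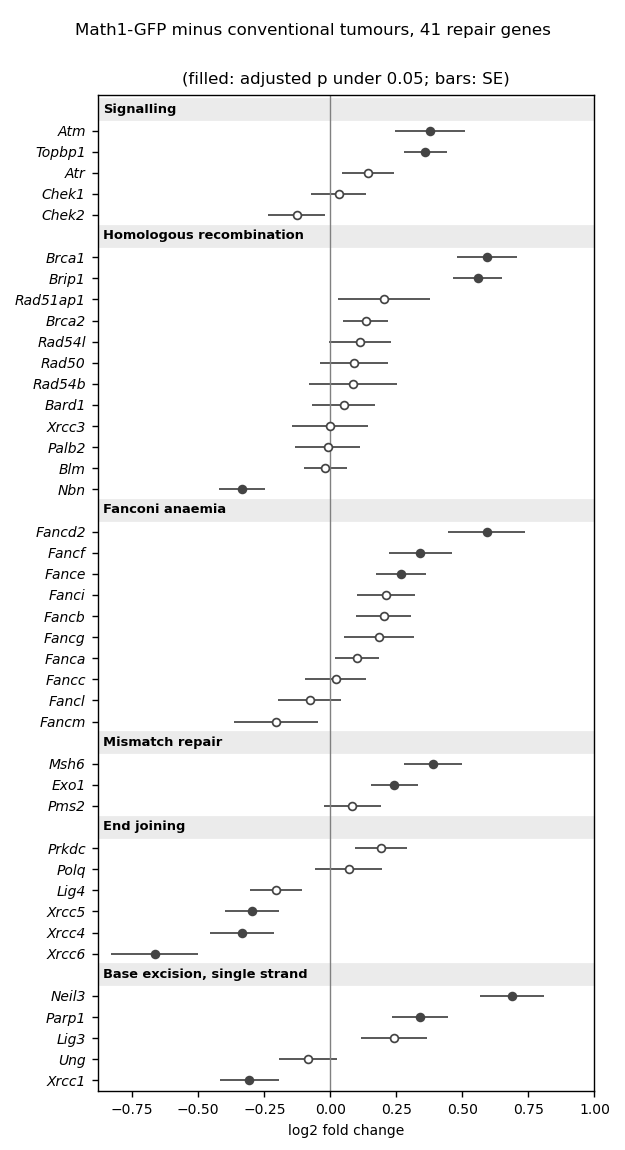
Log2 fold change, Math1-GFP minus conventional tumours averaged over CD15 fractions, of 41 repair genes grouped by role (x axis: log2 fold change; bars: standard error; filled points: adjusted p under 0.05). Of the filled points 11 lie above 0 and 5 below, among them 3 of the 6 end joining genes.

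Genes higher in Math1-GFP tumours included 2 of homologous recombination. Brca1 averaged 479 ± 22.5 (n = 4) and 386 ± 32.2 (n = 5) in CD15 positive and CD15 negative cells of Math1-GFP tumours, against 301.5 ± 64.0 and 260.4 ± 70.7 (SD, n = 6 each) in those of conventional tumours. The log2 fold change was 0.59 ± 0.11 (SE, limma, adjusted p = 3.71e-04). Brip1, the helicase that binds Brca1, had 0.56 ± 0.09 (SE, limma, adjusted p = 8.79e-05). Its signals averaged 83.8 ± 22.1 (n = 4) and 73.8 ± 11.4 (n = 5) in CD15 positive and CD15 negative cells of Math1-GFP tumours, against 48.4 ± 9.1 and 38.1 ± 10.9 (SD, n = 6 each) in those of conventional tumours.

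Neil3 had a log2 fold change of 0.69 ± 0.12 between the models (SE, limma, adjusted p = 1.78e-04), with signals of 170.3 to 378 in Math1-GFP tumours, against 76.4 to 244 in conventional ones. Fancd2, which is ubiquitinated at crosslinks, had 0.59 ± 0.15 (SE, limma, adjusted p = 0.00339) and Topbp1 0.36 ± 0.08 (SE, limma, adjusted p = 0.00149). The second Topbp1 probe set gave −0.0077, and with the mean of both the gene did not pass (0.18, adjusted p = 0.0908). Atm, Msh6, Parp1, Fancf, Fance and Exo1 also passed, with fold changes between 0.24 and 0.39.

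Lower in Math1-GFP tumours were Xrcc6, Xrcc4 and Xrcc5 of end joining, Nbn and Xrcc1. Xrcc6, the Ku70 subunit, had signals of 96.0, 242, 243 and 256 in Math1-GFP CD15 positive cells and 76.4, 258, 187, 210.3 and 252 in Math1-GFP CD15 negative cells, against the conventional ranges of 288 to 419 and 215 to 318. The lowest value of each Math1-GFP group was that of array 1 or array 2. The log2 fold change was −0.66 ± 0.17 (SE, limma, adjusted p = 0.00345), and without these 2 arrays it was −0.40 ± 0.09 (SE, limma, adjusted p = 0.00213).

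Nbn had −0.33 ± 0.09 (SE, limma, adjusted p = 0.00451), and −0.40 without arrays 1 and 2. Xrcc4, Xrcc5 and Xrcc1 had −0.33, −0.30 and −0.31, and without arrays 1 and 2 none of these 3 passed (−0.21, −0.22 and −0.17). In that setting 20 repair genes passed (48.8%), 18 higher and 2 lower. Of all 12367 genes 37.5% passed there, 2303 higher and 2333 lower. Of the end joining genes Prkdc was higher and Xrcc6 lower. Of 11 microglial genes all 11 were lower in Math1-GFP tumours (median −1.22), with mean levels of 5.79 to 7.47 in Math1-GFP tumours, against 5.93 to 9.90 in conventional ones; their part in the repair gene differences was not tested.

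Further repair genes beyond the 42 were read from a second list of 124, of which 107 were tested. In conventional tumours 10 of the 107 were higher in CD15 positive cells and 1 lower, with a median of 0.10. That is 10.3% in all, against 8.13% of all genes, so the total was near the background. By direction, 9.35% were higher, against 3.05% of all genes, and 0.93% were lower, against 5.09% of all genes. The higher ones included Tipin of the fork protection complex (0.56 ± 0.11, SE, limma, adjusted p = 0.0025) and Clspn, which brings Chek1 to ATR (0.46 ± 0.12, SE, limma, adjusted p = 0.0167). Psmc3ip, an accessory factor of strand exchange, had 0.59 ± 0.12 (SE, limma, adjusted p = 0.00397), Ube2t, the ubiquitin-conjugating enzyme of the Fanconi pathway, 0.58 ± 0.13 (SE, limma, adjusted p = 0.00923), and the helicase Recql4 0.42 ± 0.10 (SE, limma, adjusted p = 0.012).

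Tdp1, which removes trapped topoisomerase from DNA ends, had 0.48 ± 0.11 (SE, limma, adjusted p = 0.00909), and the flap endonuclease Fen1 0.51 ± 0.13 (SE, limma, adjusted p = 0.0162). Rpa1 and Rpa2, which coat single-stranded DNA, and Rad51b were the others. Ercc2, a helicase of nucleotide excision repair, was lower at −0.46 ± 0.14 (SE, limma, adjusted p = 0.0474), a call kept in 10 of 34 alternative settings. In Math1-GFP tumours 0 of the 107 passed, with a median of 0.05.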

How the data were processed

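The deposited values are probe set signal intensities of Affymetrix mouse arrays on a linear scale. The authors' processing steps are not given in the sources used here; their values show a common mean of 150.0 on every array once 2% of values at each end are trimmed. The intensities were used as deposited, as log2(signal + 32). The 64 control probe sets, probe sets with several or no listed symbols, and those below the 40th percentile of mean level (a signal of about 15.5) were left out. Each gene was read from its brightest probe set. With limma 3.58.1 in R 4.3.3, 4 group means were fitted to all 21 arrays (lmFit and eBayes, 17 residual degrees of freedom, two-sided), and p-values of a contrast were adjusted over 12367 genes (Benjamini-Hochberg, threshold 0.05). The fit was tested on simulated data.

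The members, gene lists and alternatives were chosen with earlier results of these data known. Genes named with values are Atm, Atr, Chek1, Chek2, Brca1, Brca2 and Parp1; the 4 members of smallest p in each role in the conventional CD15 comparison, called or not; the 5 of smallest p in the Math1-GFP comparison, 3 in the interaction and 6 between models; and 3 called genes for each list of other repair genes. Other members appear by count, range or name, and Nbn, Xrcc4, Xrcc5 and Xrcc1 in the model comparison were named after their values were seen.

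Same-numbered conventional arrays deviated from their group means together (correlation 0.53 to 0.79 in 5 pairs, at most 0.27 in other pairs, each CD15 positive array closest to its own number), so the title numbers were taken to pair them. The main fit did not use these pairs and treated the arrays of both fractions as independent. Alternatives were quantile normalization, other pseudocounts, filters and probe set rules, fits of 2 groups, trend and robust estimation, pairs as a block, array sets and leaving out arrays.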

Additional observations from a re-analysis of the deposited data

Results flagged for a closer look

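Single arrays stood far from the rest of their group, by the gap to the nearest array over the range of the group, in 13 of 140 combinations of gene and group (9.29%), where chance gives about 5%. Values are log2(signal + 32). Xrcc6 was low on Math1-GFP CD15 positive array 1 (7.00), on Math1-GFP CD15 negative array 2 (6.76) and on conventional CD15 positive array 6 (8.32). On Math1-GFP CD15 negative array 2, Fanci (6.65), Fancd2 (7.02), Xrcc4 (6.37) and Tdp1 (8.07) were low too. Atr was low on Math1-GFP CD15 positive array 1 (7.18). Fanca was high on the unnumbered conventional CD15 positive array (8.23) and on Math1-GFP CD15 positive array 5 (8.21). Msh6 was high on Math1-GFP CD15 negative array 6 (9.65), Psmc3ip on Math1-GFP CD15 positive array 9 (8.97) and Tdp1 on conventional CD15 positive array 2 (9.06).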

How the results depend on the processing

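The count of 5 repair genes past the threshold in conventional tumours was 9 after quantile normalization (adding Brca2, Exo1, Fanci and Neil3), 3 when the probe sets of a gene were averaged, and 0 among the unnumbered arrays and number 6 alone, where fewer samples entered and 0 of all genes passed. Leaving out 1 array gave 3 to 9. The lowest counts came without CD15 negative array 4 or 5, and the highest without Math1-GFP CD15 negative array 2. On the numbered arrays the count was 6 with the title numbers as a replicate block and 5 without it. Between these 2 fits the calls of Rad51ap1 and Ercc2 differed among the named genes, both passing with the block only, while Fanca was lost and Neil3 gained in both. The count for the average over models was 7, and 4 to 9 on leaving out 1 array. Between models the count was 16, and 12 to 16 on leaving out 1 array, the lowest without Math1-GFP CD15 positive array 5. In the other alternatives it was 13 to 20. The count of 0 in Math1-GFP tumours and in the interaction was 0 in every alternative run for them, including consecutive Math1-GFP numbers as a block, which the labels do not state. Fold changes of 2 genes in conventional tumours changed sign, Pms2 at −0.0083 with the mean of its probe sets and Ung at −0.0091 among the unnumbered arrays and number 6; neither had passed. Over the named genes and alternatives, 1475 values kept their direction and side of the threshold, 53 lost the threshold and 22 gained it. Causes of these changes were not tested.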

Other observations

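Repair genes outside the 42 also differed between the models. Of the 107 tested, 21 were higher (19.6%) and 28 lower (26.2%) in Math1-GFP tumours, 45.8% in all. Of all genes 39.2% passed, 18.7% higher and 20.5% lower. Of 36 further genes of mismatch, base and nucleotide excision repair, 3 were higher (8.3%) and 14 lower (38.9%). Of 29 further genes of end joining and signalling, 11 were higher (37.9%) and 5 lower (17.2%). Of 42 further genes of recombination and fork repair 7 were higher (16.7%) and 9 lower (21.4%), near the shares of all genes. Model and handling cannot be told apart in these counts.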
